A study of Mus musculus with 36 samples.

Results

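The 39 genes described here encode subunits of mouse chromatin remodelling complexes: 26 subunits of the BAF (SWI/SNF) complexes, the 9 CHD genes, the ISWI ATPases Smarca1 and Smarca5, the ISWI partner Bptf, and Ino80. They were chosen by name, not by their values. All 39 were among the 51734 genes of the count table, and all 39 passed the filter on low counts, which 20511 genes passed. The study asked how enhancers are organised while stem cells differentiate, and what the methyltransferase activity of MLL3 and MLL4 (KMT2C and KMT2D) contributes. RNA was sequenced from E14 mouse embryonic stem cells (ESC) and, after treatment with retinoic acid, from the neural precursor cells (NPC) that they formed. Of the series' 36 samples, 18 were used: 3 libraries from each of 3 genotypes at both stages. WT was wild type. MLL3/4 dCD (here dCD) named, per the labels, the line in which MLL3 and MLL4 have no catalytic activity, and MLL2 dTAG (here MLL2dTAG) the line whose MLL2 (KMT2B) carries a degron tag. The labels list the degrader dTAG-13 for every one of these libraries, WT and both stages included, so the compound itself was not compared. For differentiation the protocol gives 2 µM of it from day 1, with NPC collected on day 4. Its dose and timing in ESC are not given in the sources used here. Each genotype was its own line, and no label says that replicates were separate cultures, so p-values may measure technical spread only.

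BAF complexes use the energy of ATP to move or evict nucleosomes, through 1 of the paralogous ATPases BRG1 (Smarca4) or BRM (Smarca2). Their other subunits come in alternative versions, and during neural development stem-cell BAF gives way to progenitor BAF and then to neuronal BAF, in which ACTL6B, DPF1 or DPF3 and SS18L1 take the places of ACTL6A, PHF10 or DPF2 and SS18. CHD proteins carry chromodomains, and CHD3, CHD4 and CHD5 are the alternative motors of the NuRD complex. ISWI ATPases space nucleosomes evenly.

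The libraries held 19.4 to 46.0 M counts each. The transcripts of the edited genes gave no check of the labels, because loss of catalysis or of a tagged protein need not lower the count. Kmt2b differed between MLL2dTAG and WT by -0.04 in ESC (adjusted p = 0.49) and 0.11 in NPC (adjusted p = 0.041) on the log2 scale. Summed, Kmt2b, Kmt2c and Kmt2d were at 530 to 684 CPM (read counts scaled to a common library size after TMM adjustment) in WT ESC. They were at 577 to 615 CPM in dCD ESC and 707 to 726 CPM in MLL2dTAG ESC. In NPC the sums were 584 to 620 CPM in WT, 570 to 608 CPM in dCD and 744 to 806 CPM in MLL2dTAG. The MLL2dTAG sum thus lay above WT at both stages. Kmt2c and Kmt2d are not given singly here. The summed level of 8 pluripotency markers was 3938 to 4374 CPM in WT ESC and 33.4 to 34.7 CPM in WT NPC. It was 49.3 to 50.5 CPM in dCD NPC and 211 to 214 CPM in MLL2dTAG NPC. The 8 neural progenitor markers summed to 380 to 391 CPM in WT ESC, 481 to 488 CPM in WT NPC, 884 to 964 CPM in dCD NPC and 496 to 504 CPM in MLL2dTAG NPC, and in ESC they were already higher in the lines, at 585 to 600.0 CPM in dCD and 584 to 598 CPM in MLL2dTAG. The 10 markers of postmitotic neurons summed to 387 to 462 CPM in WT ESC. They were at 401 to 417 CPM in dCD ESC and 429 to 445 CPM in MLL2dTAG ESC, where 1 of them, Dcx, was at 0. In NPC they summed to 294 to 300.2 CPM in WT, 446 to 480 CPM in dCD and 279 to 293 CPM in MLL2dTAG. A sum follows its most abundant genes, so single markers can differ from it. The 8 endoderm markers summed to 467 to 483 CPM in WT NPC, 978 to 1010.1 CPM in MLL2dTAG NPC and 327 to 335 CPM in dCD NPC. In ESC they were at 117 to 125 CPM in WT, 134 to 140 CPM in MLL2dTAG and 61.0 to 71.2 CPM in dCD. The 8 mesenchyme markers summed to 482 to 599 CPM in WT ESC, 766 to 856 CPM in dCD ESC and 866 to 923 CPM in MLL2dTAG ESC, and in NPC to 704 to 724 CPM in WT, 902 to 986 CPM in dCD and 1080.0 to 1089 CPM in MLL2dTAG. The part these markers have in the results below was not tested, and in bulk RNA fewer cells of a type and less RNA per cell cannot be told apart.

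Differentiation moved most of the remodeller genes. In WT, 25 of the 39 were higher in NPC than in ESC and 11 were lower, at an adjusted p under 0.05 in edgeR's quasi-likelihood test with Benjamini-Hochberg adjustment over all genes (79.5% of all genes tested were called). The median log2 fold change was 0.24 over the 39 genes and -0.04 over all genes. In dCD cells 20 were higher and 15 lower, where 77.6% of all genes were called, with a median of 0.10. In MLL2dTAG cells 22 were higher and 12 lower, where 78.2% of all genes were called, with a median of 0.20. With offsets for GC content and transcript length these splits became 17 higher and 17 lower in WT, 16 and 21 in dCD, and 18 and 18 in MLL2dTAG. The changes of over 2-fold were few and large: Dpf3, Smarca2, Chd3, Actl6b, Smarcc2, Smarca1, Smarcd3, Arid1b and Smarce1 rose in WT, and Chd5, Chd9, Ino80 and Actl6a fell. Among all genes, 22.5% rose and 21.2% fell by as much.

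**Figure D1:**
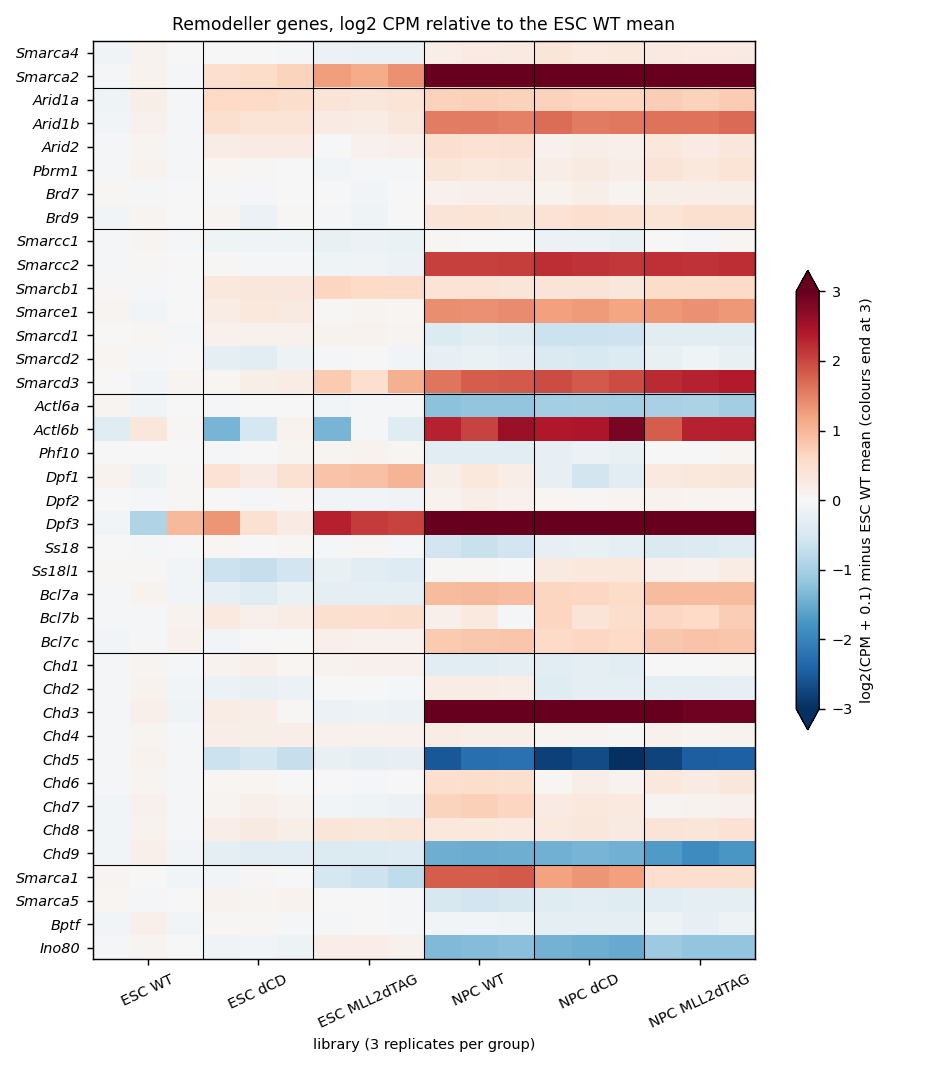
Each row is 1 remodeller gene, each column 1 of the 18 libraries, and the colour is log2(CPM + 0.1) minus the mean of the 3 WT ESC libraries, with colours ending at 3 in either direction. Smarca2, Dpf3, Chd3 and Smarcc2 stand out as higher in all 9 NPC libraries and Chd5, Chd9, Ino80 and Actl6a as lower.

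Of the BAF ATPases, Smarca2 rose steeply and Smarca4 changed little. In WT, Smarca2 was at 5.05, 5.70 and 5.06 CPM in the ESC libraries and at 69.6, 69.6 and 68.0 CPM in the NPC libraries. The stages did not overlap, and the log2 fold change was 3.70 (SE 0.07, adjusted p = 2.4e-33). It rose by a log2 of 4.07 in dCD cells and 3.57 in MLL2dTAG cells. Smarca2 was also higher in both edited lines at both stages. In ESC it was at 7.47, 7.78 and 8.42 CPM in dCD and at 12.7, 11.5 and 13.7 CPM in MLL2dTAG, all above the WT libraries (log2 fold changes of 0.58 and 1.26, adjusted p = 2.8e-06 and 1.6e-15). In NPC it was at 131, 135 and 132 CPM in dCD and at 148, 148 and 156 CPM in MLL2dTAG, again with no overlap with WT (0.94 and 1.12, adjusted p = 8.6e-20 and 2.0e-22). Both lines were compared with the same WT libraries. Smarca4, the ATPase on which stem-cell BAF depends, stayed between 332 and 491 CPM in all 18 libraries. Its change with differentiation was small in WT (0.23, adjusted p = 6.4e-07) and became -0.11 with the offsets for GC content and length.

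The ARID subunits, which define canonical BAF (ARID1A or ARID1B) and PBAF (ARID2), showed their largest change in Arid1b. In WT it was at 44.4, 51.3 and 45.4 CPM in ESC and at 136, 138 and 133 CPM in NPC, with a log2 fold change of 1.52 (SE 0.05, adjusted p = 6.8e-26). The rise was 1.18 in dCD (0.53 with the offsets) and 1.38 in MLL2dTAG cells. Arid1a was at 274, 338 and 289 CPM in WT ESC, where replicate 2 was the highest, and at 479, 491 and 481 CPM in WT NPC (0.69, adjusted p = 1.5e-16; 0.29 with the offsets). In ESC, Arid1a was already high in the edited lines: 452, 449.6 and 429 CPM in dCD and 392, 381 and 397 CPM in MLL2dTAG, all above the WT libraries (0.56 and 0.37, adjusted p = 5.8e-13 and 3.2e-09). In NPC no difference in Arid1a was called in either line (-0.03 and 0.04), and the dCD difference fell by 0.59 between the stages on the log2 scale (interaction, adjusted p = 6.4e-10). Arid2 went from above WT in dCD ESC (0.24) to below it in dCD NPC (-0.31), an interaction of -0.54 (adjusted p = 1.7e-10). Its dCD libraries were at 217, 220.2 and 220.0 CPM in ESC and at 203, 210.4 and 206 CPM in NPC, while WT was at 179, 197 and 182 CPM and then at 257, 252 and 255 CPM. Of the other PBAF and non-canonical BAF subunits, Pbrm1, Brd7 and Brd9 changed with differentiation in WT by 0.33, 0.14 and 0.38, of which Pbrm1 became -0.02 and Brd7 0.04 with the offsets, neither of them called (adjusted p = 0.43 and 0.26). Their largest difference from WT in either line at either stage was -0.11, for Pbrm1 in dCD NPC (adjusted p = 0.012).

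Among the core subunits Smarcc2 and Smarce1 rose most. Smarcc2 (BAF170) was at 51.0, 54.7 and 53.3 CPM in WT ESC and at 220.2, 221 and 223 CPM in WT NPC, a log2 fold change of 2.06 (SE 0.04, adjusted p = 1.7e-32). Its rise was 2.19 in dCD and 2.34 in MLL2dTAG cells. Its paralog Smarcc1 (BAF155), the main form in stem cells, stayed between 404 and 495 CPM in all 18 libraries, and its change in WT was 0.02 (adjusted p = 0.60), or -0.35 with the offsets (adjusted p = 4.7e-15). Smarce1 (BAF57), a DNA-binding subunit, rose from 84.2, 74.9 and 78.5 CPM to 209.7, 205 and 211 CPM in WT (1.40, adjusted p = 3.7e-27). It rose less in dCD cells (0.97), and the interaction was -0.43 (adjusted p = 5.1e-08). Smarcb1 (SNF5), whose loss causes rhabdoid tumours, was higher in the edited ESC: WT libraries were at 91.0, 86.8 and 89.8 CPM, dCD at 111, 113 and 113 CPM, and MLL2dTAG at 139, 134 and 133 CPM. The groups did not overlap (0.33 in dCD, 0.60 in MLL2dTAG, adjusted p = 2.5e-09 and 2.4e-16). In NPC the MLL2dTAG difference was 0.17 (adjusted p = 7.8e-05) and that in dCD -0.02.

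The SMARCD subunits, which tether transcription factors, moved apart. Smarcd3 (BAF60C), known from heart and muscle and from neural BAF, was at 4.95, 4.61 and 5.16 CPM in WT ESC and at 15.2, 17.5 and 17.7 CPM in WT NPC (1.78, SE 0.11, adjusted p = 7.1e-17). In MLL2dTAG it was higher at both stages, at 8.50, 7.04 and 10.3 CPM in ESC (0.82, adjusted p = 2.9e-07) and at 23.3, 24.6 and 25.9 CPM in NPC (0.55, adjusted p = 7.2e-07), with no overlap with WT. In dCD its differences of 0.16 at both stages were not called. Its reads may be shared with Chpf2, because 33.0% of its exon bases lie opposite exons of that gene, and no source used here gives the strand setting of the counting. Smarcd1 fell in all 3 genotypes, by 0.38 in WT, 0.78 in dCD and 0.41 in MLL2dTAG, and the dCD interaction was -0.40 (adjusted p = 1.2e-08). It was at 194, 203 and 192 CPM in WT ESC, 147, 156 and 150.0 CPM in WT NPC and 125, 125 and 127 CPM in dCD NPC. Smarcd2 fell by 0.23 in WT.

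The subunits that exchange between stem-cell, progenitor and neuronal BAF changed in part. The promoters of Actl6a and Actl6b, which replace each other, and of Dpf3 and Smarca2, which rose over 2-fold in WT and differed from WT in both lines in NPC, are shown as context for these results. Each is the stretch from 250 to 111 bases upstream of the RefSeq transcript start (GRCm38.p6), 5′ to 3′ on the gene's strand, with CpG in capitals. The bases nearer the start are left out because annotated exons of Actl6a, Actl6b and Smarca2 begin there. In GENCODE M21, 1 annotated transcript of Actl6a starts further upstream, and the stretch shown lies in an intron of it. MLL2 carries a CXXC domain that binds CpG-rich DNA, which is background and was not tested here.
Actl6a, chr3:32708296-32708435, plus strand: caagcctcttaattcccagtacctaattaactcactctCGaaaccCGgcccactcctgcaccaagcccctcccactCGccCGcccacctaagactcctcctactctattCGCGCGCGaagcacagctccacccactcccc
Actl6b, chr5:137553296-137553435, plus strand: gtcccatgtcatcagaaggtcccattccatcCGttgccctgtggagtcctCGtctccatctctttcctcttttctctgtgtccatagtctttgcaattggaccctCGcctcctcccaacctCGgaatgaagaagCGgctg
Dpf3, chr12:83487847-83487986, minus strand: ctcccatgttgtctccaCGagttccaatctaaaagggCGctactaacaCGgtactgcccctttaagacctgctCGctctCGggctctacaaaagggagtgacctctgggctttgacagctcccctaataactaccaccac
Smarca2, chr19:26604910-26605049, plus strand: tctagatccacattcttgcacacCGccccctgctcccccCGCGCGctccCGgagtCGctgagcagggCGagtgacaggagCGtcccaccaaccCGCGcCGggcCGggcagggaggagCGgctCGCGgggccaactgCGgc
The full windows of 250 bases hold 19, 15, 16 and 28 CpG in that order. RefSeq windows of this length were used for 31 of the 39 genes, 36 windows in all, with a median of 22.5 CpG against 6 over the 32851 windows of the table. At least 16 CpG stood in 31 of the 36 windows and in 25.4% of all windows. The windows were searched on both strands for parts of the binding site of REST, a repressor of neuronal genes. TTCAGCACC was in 0.3% of all windows and in none of these genes, and GGACAGCGC was in 0.3% of all windows and in that of Arid1b. AGGTCA, a core element bound by retinoid receptors, was in 14.02% of all windows and among these genes in that of Dpf3. A match of letters is not a bound site. Motifs found in 0.3% of all windows are too rare for their absence from these 36 windows to carry information. AGGTCA is common over all windows, so its match in Dpf3 carries no information either.

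Dpf3, a double-PHD-finger subunit that reads acetylated and methylated histone H3, showed the largest rise of the 39 genes in WT. It was at 0.426, 0.199 and 0.985 CPM in WT ESC and at 19.5, 20.0 and 19.9 CPM in WT NPC, a log2 fold change of 5.16 (SE 0.18, adjusted p = 4.6e-24). In ESC the MLL2dTAG libraries were higher, at 2.67, 2.27 and 2.17 CPM (2.09, adjusted p = 3.4e-08), while the dCD libraries, at 1.28, 0.662 and 0.559 CPM, overlapped with WT (0.58, adjusted p = 0.19). In NPC the lines lay on opposite sides of WT. Dpf3 was at 41.5, 40.6 and 43.3 CPM in MLL2dTAG NPC (1.08, adjusted p = 9.4e-13) and at 14.3, 12.9 and 12.2 CPM in dCD NPC (-0.60, adjusted p = 3.7e-06), and the 3 genotypes did not overlap. The rise with differentiation was 3.99 in dCD and 4.15 in MLL2dTAG cells, smaller than in WT by 1.17 (interaction, adjusted p = 0.011) and 1.01 (adjusted p = 0.0054). Both interactions depended on single ESC libraries with low counts: without WT ESC replicate 2 they were -0.70 (adjusted p = 0.11) and -0.54 (adjusted p = 0.13), and without dCD ESC replicate 1 the first was -0.75 (adjusted p = 0.17). Without WT ESC replicate 3 they were -2.102 and -1.939.

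Dpf1, a relative also known from neuronal BAF, did not follow Dpf3. It was at 15.4, 12.99 and 14.8 CPM in WT ESC and at 16.2, 17.8 and 16.6 CPM in WT NPC, which is a rise of 0.24 (adjusted p = 0.0097). In ESC it was above WT in both lines, at 19.4, 17.2 and 19.9 CPM in dCD (0.39, adjusted p = 0.0002) and at 25.9, 26.5 and 29.0 CPM in MLL2dTAG (0.92, adjusted p = 3.2e-12). In both lines it then fell with differentiation, by 0.76 in dCD and 0.60 in MLL2dTAG, to 12.1, 9.85 and 11.6 CPM and to 17.6, 17.8 and 18.4 CPM. The interactions were -0.995 (SE 0.12, adjusted p = 1.1e-08) and -0.84 (SE 0.11, adjusted p = 7.2e-08). Phf10 (BAF45A), the progenitor form that sits in PBAF, fell by 0.33 in WT and was at 89.4, 91.4 and 91.3 CPM in WT NPC and 115, 115 and 119 CPM in MLL2dTAG NPC (0.36, adjusted p = 1.2e-10). Dpf2, the widely expressed form, changed by 0.14 in WT, a call lost with the offsets (0.07, adjusted p = 0.055), and stayed between 127 and 156 CPM in all 18 libraries.

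The actin-like pair moved in opposite directions. Actl6a (BAF53A), the form of dividing cells, was at 209, 183 and 199 CPM in WT ESC and at 83.6, 86.9 and 87.2 CPM in WT NPC (-1.19, SE 0.04, adjusted p = 1.5e-24). It fell by 1.02 in dCD and by 0.92 in MLL2dTAG cells, and 22.5% of its exon bases lie opposite exons of Mrpl47. In NPC it was slightly above WT in both lines (0.18 and 0.21, adjusted p = 0.0003 and 4.4e-05). Actl6b (BAF53B), the neuronal form, was barely counted in ESC: 0.106, 0.232 and 0.170 CPM in WT, 0, 0.0828 and 0.186 CPM in dCD, and 0, 0.155 and 0.104 CPM in MLL2dTAG. In NPC it was at 1.20, 0.985 and 1.48 CPM in WT, 1.29, 1.32 and 1.79 CPM in dCD, and 0.830, 1.21 and 1.23 CPM in MLL2dTAG. The stages did not overlap in any genotype. The rise in WT was 2.76 (SE 0.46, adjusted p = 1.9e-06). In dCD the 7 counts of ESC and 151 counts of NPC gave a ratio of 15.6 (95% interval 7.38 to 39.4, counting error only), and in MLL2dTAG the 9 and 130 counts gave 12.04 (6.15 to 26.9). No difference between the lines and WT was detectable at this depth (adjusted p of 0.27 to 0.52). Sums of 14 (WT), 7 and 9 counts underlie the ESC values.

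**Figure D2:**
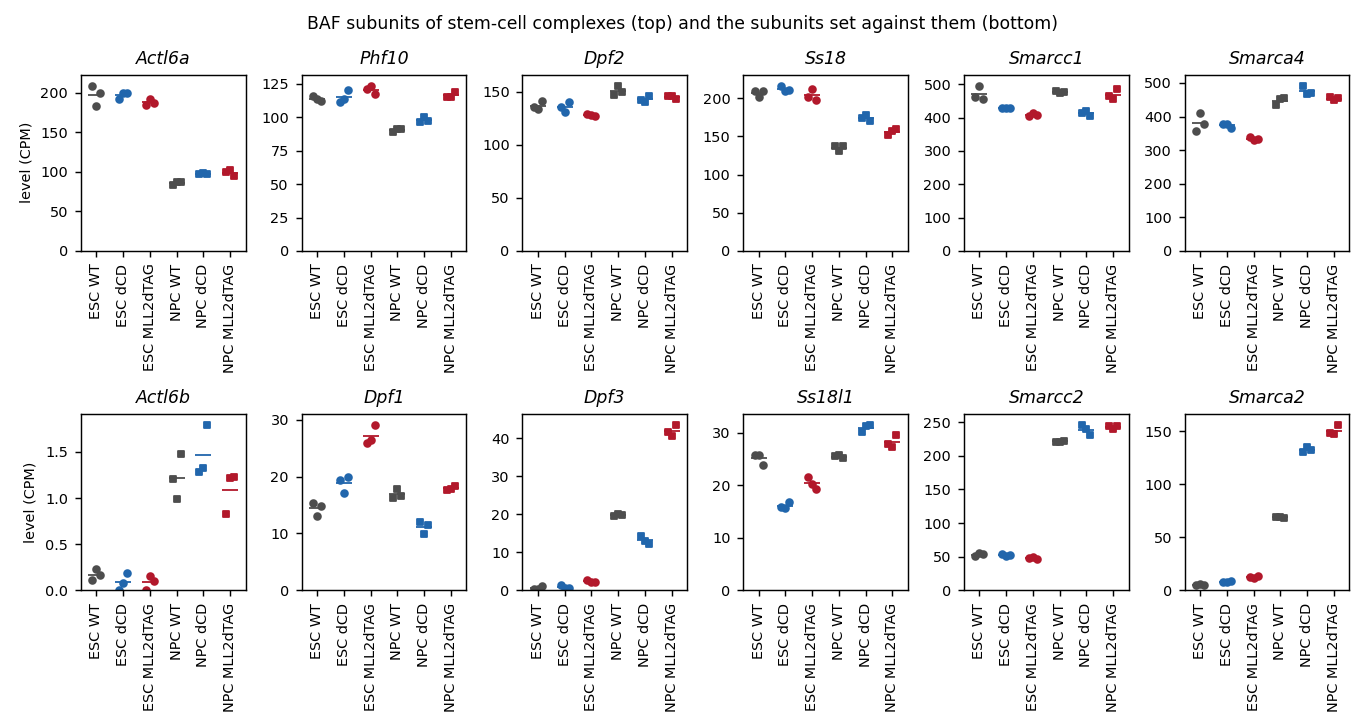
CPM in each of the 18 libraries (points) and group means (bars) for 6 subunits of stem-cell BAF (top) and the subunit set against each (bottom), on linear axes from 0, circles for ESC and squares for NPC. Dpf3, Smarca2 and Smarcc2 are higher in every NPC library than in any ESC library, with Dpf3 at 12.2 CPM or more in NPC. Actl6a drops to 102 CPM or less in NPC, and Actl6b stays under 2 CPM.

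The SS18 pair and the BCL7 genes showed smaller changes. Ss18, the stem-cell form, was at 209, 201 and 209 CPM in WT ESC and at 138, 131 and 138 CPM in WT NPC (-0.61, adjusted p = 1.6e-17), and it fell by 0.28 in dCD and 0.39 in MLL2dTAG cells, or by 0.45 and 0.60 with the offsets. In NPC both lines were above WT, at 174, 177 and 171 CPM in dCD (0.36, adjusted p = 6.4e-11) and 152, 157 and 159.6 CPM in MLL2dTAG (0.21, adjusted p = 5.1e-06). Ss18l1 (CREST), the neuronal form, showed no called change in WT, at 25.8, 25.7 and 23.9 CPM in ESC and 25.6, 25.7 and 25.2 CPM in NPC (0.02, adjusted p = 0.74), and -0.17 with the offsets (adjusted p = 0.011). In dCD it was below WT in ESC, at 16.0, 15.6 and 16.7 CPM (-0.64, adjusted p = 5.4e-10), and above it in NPC, at 30.1, 31.2 and 31.4 CPM (0.28, adjusted p = 9.9e-05). The groups did not overlap at either stage, the rise within dCD was 0.94, and the interaction was 0.92 (SE 0.09, adjusted p = 9.8e-11). In MLL2dTAG the differences had the same signs (-0.31 and 0.15), with an interaction of 0.45 (adjusted p = 3.0e-05). Of the BCL7 subunits, Bcl7a and Bcl7c rose in WT by 0.95 and 0.80 and Bcl7b showed a change of 0.13 that was not called (adjusted p = 0.15). With the offsets the rise of Bcl7a was 0.51, and that of Bcl7b was 0.22 and called (adjusted p = 0.011). Bcl7a was at 67.3, 73.1 and 65.1 CPM in WT ESC, 132, 135 and 130.1 CPM in WT NPC, and 108, 105 and 99.9 CPM in dCD NPC (-0.35, adjusted p = 7.0e-09). Bcl7b was above WT in both lines at both stages, most in MLL2dTAG: 23.2, 23.7 and 23.8 CPM against 16.0, 15.9 and 17.9 CPM in ESC (0.50, adjusted p = 1.8e-06), and 25.6, 25.2 and 27.8 CPM against 18.4, 20.4 and 15.8 CPM in NPC (0.52, adjusted p = 1.9e-07).

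Per exon length, the RNA ratios of the alternative subunits had shifted to different extents by day 4. Protein and the make-up of the complexes were not measured, so these ratios do not show an exchange of subunits. In WT the reads of Actl6b per exon length were 0.115 per 100 of Actl6a in ESC and 1.79 in NPC. Smarca2 went from 1.20 to 13.5 per 100 of Smarca4, Smarcc2 from 14.2 to 58.6 per 100 of Smarcc1, and Smarcd3 from 4.23 to 19.0 per 100 of Smarcd1. In each of these pairs the later form was still below the earlier form in every library. Dpf3 went from 0.369 to 12.1 per 100 of Dpf2 in WT, where the ESC value rested on 8, 6 and 29 counts of Dpf3 and was 0.196 without replicate 3. In NPC it was at 8.44 in dCD and 26.5 in MLL2dTAG. Ss18l1 went from 12.7 to 19.6 per 100 of Ss18, of which Ss18 fell. Arid1b went from 11.6 to 20.9 per 100 of Arid1a. Dpf1 went from 8.22 to 12.2 per 100 of Phf10 in WT, but from 10.7 to 7.44 in dCD and from 14.8 to 10.1 in MLL2dTAG. Per 100 of Dpf2 it went from 13.7 to 14.8 in WT, where the stages overlapped. It fell from 18.3 to 10.3 in dCD and from 28.2 to 16.3 in MLL2dTAG. In MLL2dTAG NPC, Dpf1 was thus below WT per 100 of Phf10 but above WT per 100 of Dpf2. In NPC, Smarca2 per 100 of Smarca4 was 24.4 in dCD and 29.0 in MLL2dTAG, and no library of either line overlapped with WT. Smarca1 per 100 of Smarca5 was 49.2 in WT NPC, 29.4 in dCD NPC and 16.6 in MLL2dTAG NPC. These ratios are given without a test. Exon bases lie opposite exons of other genes in Actl6a (22.5%), Smarcd3 (33.0%), Smarcd1 (14.2%) and Phf10 (10.6%). Ratios with these genes may therefore include shared reads.

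**Figure D3:**
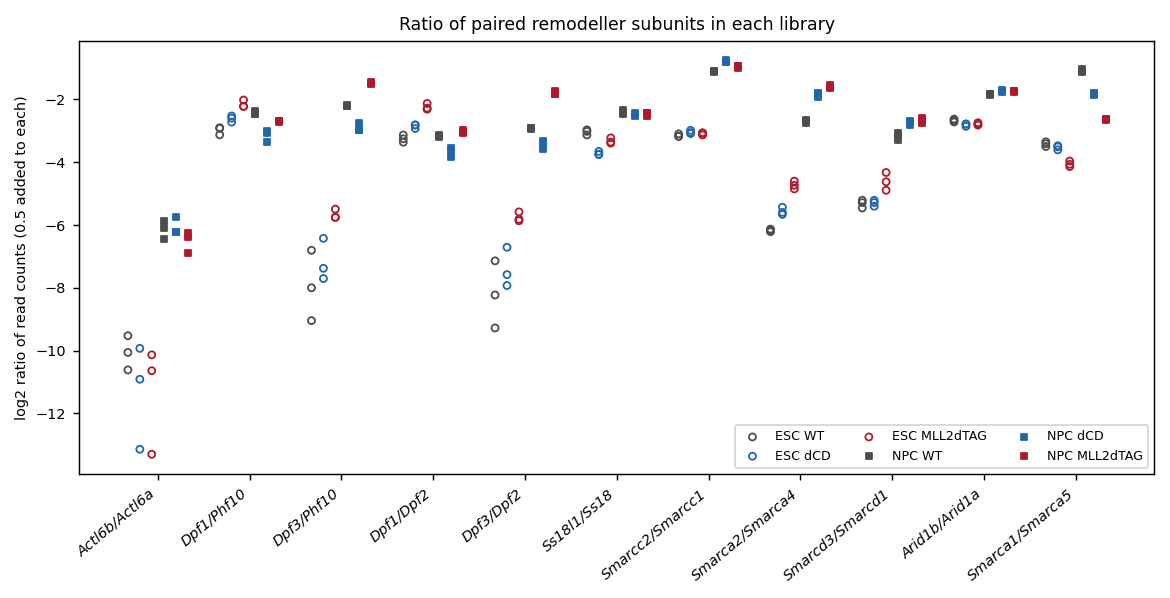
The log2 ratio of the read counts of 2 subunits in each of the 18 libraries, with 0.5 added to each count and no correction for length, for 11 pairs; open circles are ESC and filled squares NPC. Smarca2/Smarca4 is above WT in both lines at both stages, Smarca1/Smarca5 is lowest in MLL2dTAG, and Dpf1/Phf10 and Dpf1/Dpf2 fall between the stages in the lines.

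Among the CHD genes, Chd3 and Chd5 moved in opposite directions and Chd4 hardly at all. Chd3, a NuRD motor, was at 41.0, 46.5 and 38.0 CPM in WT ESC and at 424, 447 and 444 CPM in WT NPC, a log2 fold change of 3.39 (SE 0.05, adjusted p = 1.4e-35). It rose by 3.65 in dCD and 3.11 in MLL2dTAG cells. In NPC the lines again lay on opposite sides of WT, at 585, 589 and 569 CPM in dCD (0.41, adjusted p = 2.6e-10) and 332, 314 and 315 CPM in MLL2dTAG (-0.45, adjusted p = 1.9e-11). Chd5, known as the motor of neurons, fell from 35.2, 38.9 and 35.0 CPM to 6.14, 7.53 and 7.59 CPM in WT (-2.36, SE 0.09, adjusted p = 3.5e-23). It was below WT in dCD at both stages, at 23.2, 25.1 and 22.4 CPM in ESC (-0.63, adjusted p = 4.2e-08) and 5.15, 5.54 and 4.13 CPM in NPC (-0.52, adjusted p = 0.00013). Chd4, the motor of stem cells, was between 729 and 881 CPM in all libraries. Its change in WT was 0.20, and -0.13 with the offsets.

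Of the other CHD genes, Chd9 fell and Chd7 rose most with differentiation in WT. Chd9, a coactivator, was at 280.4, 328 and 279 CPM in WT ESC and 106, 106 and 107 CPM in WT NPC (-1.48, adjusted p = 9.1e-26), and it fell by 1.10 in dCD and 1.39 in MLL2dTAG cells. In ESC it was lower in both lines (-0.33 in dCD and -0.41 in MLL2dTAG, adjusted p = 1.5e-07 and 9.1e-10). Chd7, the gene mutated in CHARGE syndrome and needed in neural crest, rose in WT from 93.8, 109 and 97.4 CPM to 159, 163 and 155 CPM (0.67, adjusted p = 2.0e-16; 0.21 with the offsets). In NPC it was lower in both lines, at 119, 124 and 122 CPM in dCD (-0.39, adjusted p = 6.0e-10) and 107, 107 and 108 CPM in MLL2dTAG (-0.57, adjusted p = 2.6e-14), with no overlap with WT. The dCD interaction was -0.50 (adjusted p = 1.5e-08) and that of MLL2dTAG -0.43 (adjusted p = 2.0e-07). Chd2 was lower in NPC of both lines by a similar amount: 252, 254 and 248 CPM in WT, 169.7, 182 and 179 CPM in dCD and 177, 179 and 183 CPM in MLL2dTAG (-0.51 and -0.49, adjusted p = 9.8e-14 and 1.6e-13). Chd6 rose in WT by 0.50 (adjusted p = 4.9e-14), a call lost with the offsets (0.03, adjusted p = 0.38), and was lower in dCD NPC by 0.38 and in MLL2dTAG NPC by 0.20. Chd1, which binds methylated H3K4, fell by 0.32 in WT (by 0.71 with the offsets) and was above WT in MLL2dTAG NPC (324, 319.6 and 332 CPM against 262, 257 and 263 CPM, log2 fold change 0.32, adjusted p = 2.9e-10). Chd8, a gene linked to autism, was above WT in ESC of both lines (0.21 and 0.35).

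The ISWI ATPases changed in opposite directions. Smarca1 (SNF2L), the form of differentiating neurons, was at 26.7, 25.7 and 23.8 CPM in WT ESC and 89.2, 89.7 and 90.5 CPM in WT NPC, a log2 fold change of 1.83 (SE 0.05, adjusted p = 1.3e-26). In NPC it was lower in both lines, at 58.9, 63.4 and 59.9 CPM in dCD (-0.56, adjusted p = 1.8e-12) and at 35.9, 36.3 and 35.7 CPM in MLL2dTAG (-1.32, SE 0.05, adjusted p = 1.3e-22). The 3 genotypes did not overlap, and the MLL2dTAG difference was the largest fall of the 39 genes in either line at either stage among those called. In ESC Smarca1 was lower in MLL2dTAG, at 17.5, 16.5 and 15.0 CPM (-0.64, adjusted p = 5.1e-11), and in dCD it overlapped with WT (-0.01). The rise with differentiation was 1.27 in dCD and 1.15 in MLL2dTAG cells, and the interactions were -0.56 (adjusted p = 2.4e-07) and -0.68 (adjusted p = 5.1e-09). Smarca5 (SNF2H), the form of dividing cells, fell in WT from 285, 263 and 269.9 CPM to 194, 181 and 194 CPM (-0.52, adjusted p = 6.9e-16), and was above WT in NPC of both lines (0.18 and 0.24). Bptf, the large subunit of NURF, was between 299 and 408 CPM in all libraries and changed by -0.10 in WT, or by -0.62 with the offsets (adjusted p = 4.1e-22). Ino80, the ATPase of the complex of that name, fell in WT from 155, 170.3 and 159 CPM to 64.7, 65.6 and 68.0 CPM (-1.29, adjusted p = 3.7e-25), by 1.35 in dCD and by 1.33 in MLL2dTAG cells.

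Between genes, levels can be compared only per exon length. In WT ESC, Chd4 was highest at 113 CPM per kb of exon (SD 5.7, n = 3), followed by Actl6a at 98.0 (SD 6.4) and Smarcc1 at 72.6 (SD 3.2). Phf10 at 68.4 (SD 1.1) lay within the spread of Smarcc1 only in part. At the other end stood Smarca2 at 0.722 (SD 0.051), Dpf3 at 0.147 (SD 0.11) and Actl6b at 0.106 (SD 0.039), of which Dpf3 and Actl6b did not differ beyond their spread. In WT NPC, Chd4 led again at 130 CPM per kb (SD 1.1). Smarcc1 came next at 73.6 (SD 0.45). Smarce1 at 71.4 (SD 1.1), Smarcb1 at 70.7 (SD 1.4) and Smarca4 at 70.2 (SD 1.6) were not separable from each other, and Chd3 followed at 60.3 (SD 1.7). Actl6b at 0.768 (SD 0.16) and Chd5 at 0.747 (SD 0.087) were the lowest and overlapped.

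Counted over the 39 genes, the share called against WT was 59.0% to 71.8%, and in MLL2dTAG NPC it was no higher than that of all genes. In dCD ESC 15 genes were higher and 8 lower than in WT (59.0%, against 48.3% of all genes). In MLL2dTAG ESC 16 were higher and 11 lower (69.2%, against 56.9% of all genes). In dCD NPC 10 were higher and 18 lower (71.8%, against 53.5% of all genes), and in MLL2dTAG NPC 15 were higher and 8 lower (59.0%, against 61.7% of all genes). The median log2 fold change lay between -0.03 and 0.04 in all 4 comparisons and that of all genes between -0.02 and 0.03. Under upper-quartile scaling the MLL2dTAG splits turned to 11 higher and 14 lower in ESC and 9 higher and 13 lower in NPC, so the direction of the many small changes in that line depends on the scaling. In a fit of only the groups compared, 10 were higher and 8 lower in dCD ESC, and 12 and 11 in MLL2dTAG ESC. The share of all genes in that fit is not given here. Replicate 2 of WT ESC differed most from its group, with a chi-square per degree of freedom of 9.52 and 7.62. Replicates 1 and 3 gave 3.17. In dCD the difference from WT changed between the stages in 23 genes, 7 upwards and 16 downwards (42.9% of all genes), and in MLL2dTAG in 10 upwards and 13 downwards (49.0% of all genes). The interaction was at least 0.5 in size and called in 7 of the 39 genes in dCD, against 23.0% of all genes, and in 3 of the 39 in MLL2dTAG, against 29.2% of all genes. The 16 downward genes in dCD included Arid1a, Arid1b, Arid2, Pbrm1 and 5 of the 9 CHD genes. The 7 upward genes included Ss18l1, Ss18, Smarca2 and, of the CHD genes, Chd9. The share of all genes called in each direction is not given here, so these counts describe no trait of a family.

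**Figure D4:**
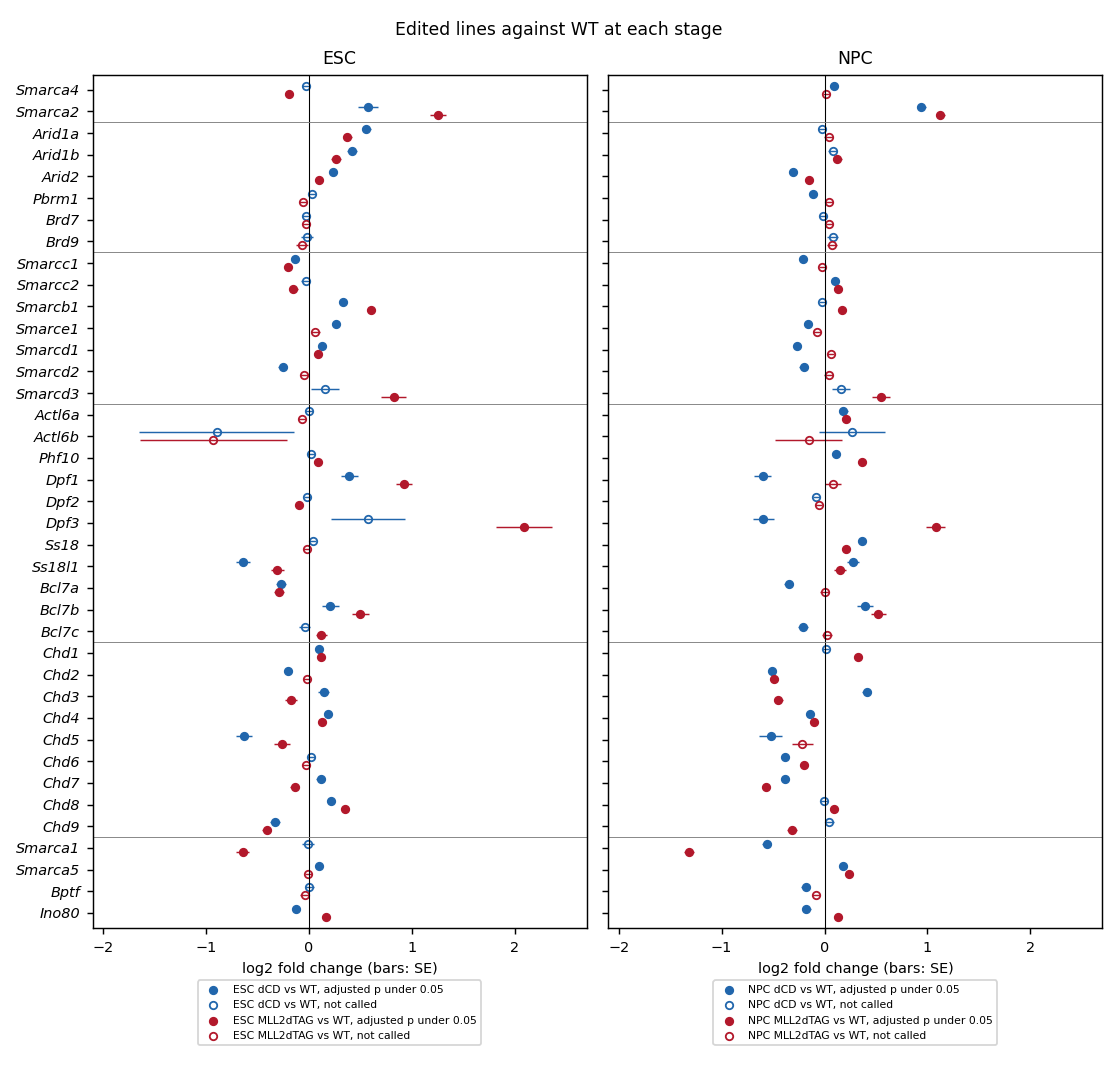
Log2 fold change against WT (points) with its standard error (bars) for the 39 genes in ESC (left) and NPC (right), dCD in blue and MLL2dTAG in red, filled where the adjusted p was under 0.05. Smarca2 is to the right in all 4 comparisons, Dpf3 and Chd3 are on opposite sides for the lines in NPC, and Smarca1 is furthest left in MLL2dTAG NPC.

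Of 52 other remodeller genes, 50 were in the table. They included NuRD and ISWI partners, further subunits of INO80, SRCAP and TIP60, and other SNF2-family ATPases. In WT 19 of the 50 were higher in NPC and 23 lower, with a median of -0.05, where 79.5% of all genes were called. Bcl11a, a neuronal BAF subunit, rose most (2.80) and Cecr2, a partner of ISWI, fell most (-1.90). Of 12 NuRD partners of Chd3, Chd4 and Chd5, 4 were higher and 4 lower in WT NPC. Of 8 ISWI partners 5 were higher and 3 lower, and Baz1a was the furthest below WT of the 50 genes in MLL2dTAG ESC (-2.20, adjusted p = 1.2e-25). The 8 ISWI partners summed to 1589 to 1789 CPM in WT ESC and to 1238 to 1249 CPM in WT NPC.

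Known regulators of the exchange were also in the table. REST represses Actl6b and other neuronal genes, and miR-9 and miR-124 repress Actl6a. Rest was at 419, 457 and 426 CPM in WT ESC and 146, 138 and 144 CPM in WT NPC (-1.61, adjusted p = 4.1e-29), and in NPC it was higher in MLL2dTAG (0.28, adjusted p = 8.2e-08). The mature strand of miR-9 known for the Actl6a site, with its seed (bases 2 to 8) in capitals, is shown because a host transcript of miR-9 rose.
mmu-miR-9-3p: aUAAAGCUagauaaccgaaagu
The miRNA itself was not measured by this library type. The host transcript C130071C03Rik was at 0.213, 0.464 and 0.340 CPM in WT ESC and 29.1, 27.1 and 29.1 CPM in WT NPC (6.30, adjusted p = 1.8e-29). In dCD NPC it was at 63.3, 68.0 and 69.0 CPM (1.23, adjusted p = 5.1e-18), and another host, Mir9-3hg, was higher there by 1.63 (adjusted p = 1.6e-12). Actl6a in the same libraries was above WT NPC by 0.18. In MLL2dTAG NPC neither difference was called (-0.13 and 0.26, adjusted p = 0.092 and 0.13). In ESC, C130071C03Rik was above WT in both lines, at 1.28, 1.74 and 1.19 CPM in dCD (1.96, adjusted p = 6.0e-07) and 2.20, 1.46 and 1.72 CPM in MLL2dTAG (2.30, adjusted p = 1.9e-09), and Mir9-3hg was not called (0.04 and -0.46). The miR-124 host Mir124a-1hg changed by 0.21 in WT (adjusted p = 0.072) and was above WT in ESC of both lines (0.86 and 1.29) and in dCD NPC (0.93). Rcor2, a corepressor that works with REST, was lower in NPC of both lines, by -0.84 in dCD (adjusted p = 1.7e-19) and -1.58 in MLL2dTAG (adjusted p = 2.4e-27).

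The small changes moved with transcript length. Of the 39 genes, 20 have at least 6 kb of exon. With offsets for GC content and length, estimated over all genes, the WT stage change of long genes moved down and 7 genes changed sign, by which Smarca4, Smarcc1, Ss18l1, Chd2, Chd4 and Chd8 were then called lower in NPC. The changes of over 2-fold kept their direction and their call: Dpf3, Smarca2, Chd3, Actl6b, Smarcc2, Smarca1, Smarcd3, Arid1b and Smarce1 stayed higher, and Chd5, Chd9, Ino80 and Actl6a stayed lower.

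**Figure D5:**
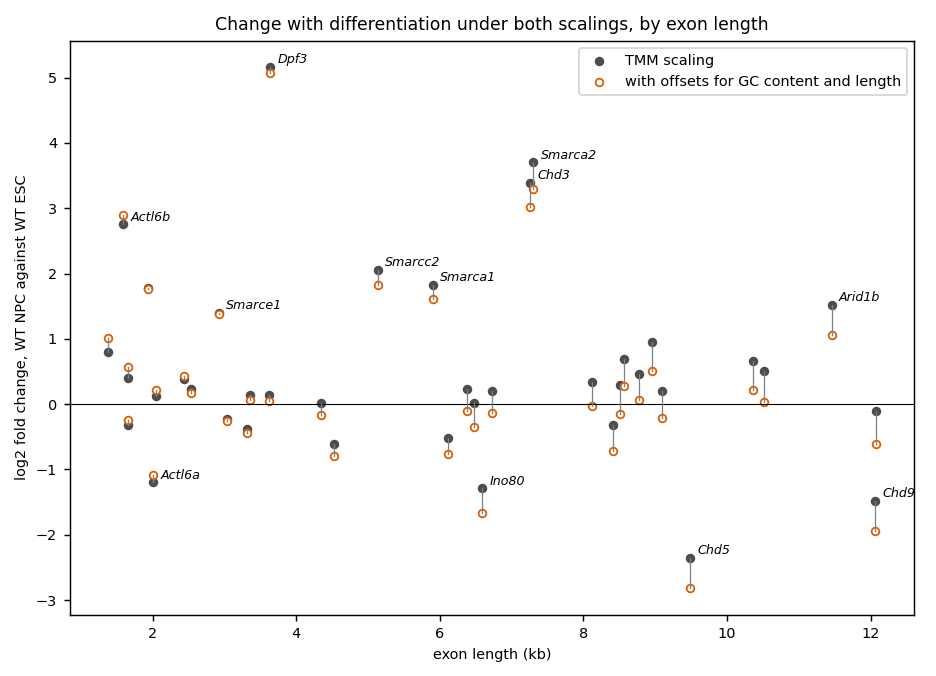
Log2 fold change of WT NPC against WT ESC for the 39 genes by exon length in kb, with TMM scaling (filled) and after correction by GC and length offsets (open), joined by a line per gene. Genes with over 6 kb of exon shift down by up to 0.51, while the named genes with large changes stay on their side of 0.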

How the data were processed

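Polyadenylated RNA was read with a stranded kit per the labels. The deposited table holds raw read counts per gene, made with HTSeq per the submitters' processing notes, with no version. They name no aligner, build or strand setting for these samples. A total of 18 columns were matched to samples by name, 6 columns with repeated names were not used, and another table of 12 columns was not analysed here. Counts were fitted with edgeR 4.0.16 (filterByExpr, TMM, quasi-likelihood F test, 6 group means, 12 residual degrees of freedom), adjusted by Benjamini-Hochberg over 20511 genes and called at 0.05. The fit was also run on simulated data with 200 genes changed in dCD NPC alone. Far more genes were called in the real data, so that run does not measure the reliability of these calls. CPM use the library totals of 19.4 to 46.0 M counts, each multiplied by its TMM factor. Replicates differed by more than counting noise (chi-square per degree of freedom 2.15 to 9.52). Among counts of 1 to 10, 60.8 to 66.5% were even, so halved counts were one alternative. Others were DESeq2 1.42.0, RLE and upper-quartile scaling, no filter, only the groups compared, a replicate block, GC and length offsets (GENCODE M21, GRCm38) and leaving out each library. All 39 genes are named. Not every called change of at least 0.5 (log2) is printed, and some stage changes within the edited lines are left out. A change left out is not thereby small or uncalled. The genes, lists and tests were chosen with earlier results of these data known.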

Additional observations from a re-analysis of the deposited data

Results flagged for a closer look

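The difference from WT changed between ESC and NPC, by an interaction test in edgeR, in 7 genes of dCD and 3 genes of MLL2dTAG with a log2 interaction of at least 0.5 in size, where 23.0% and 29.2% of all genes tested did so. In dCD the interaction was 0.92 for Ss18l1, -0.50 for Chd7, -0.59 for Arid1a, -0.995 for Dpf1, -1.17 for Dpf3, -0.54 for Arid2 and -0.56 for Smarca1. In MLL2dTAG it was -0.84 for Dpf1, -1.01 for Dpf3 and -0.68 for Smarca1. Both lines share the WT libraries, so the genes that recur are not independent. The Dpf3 calls were lost without WT ESC replicate 2 (-0.70 and -0.54).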

How the results depend on the processing

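The total number of genes and of remodeller genes called in each comparison kept within 1.5 times its main value under all alternatives. Some counts in 1 direction moved further: in MLL2dTAG NPC against WT, 15 higher became 9 under upper-quartile scaling and 8 lower became 13 there and in the fit of only the groups compared; in MLL2dTAG ESC, 11 lower became 7 without a filter; and for the MLL2dTAG interaction 10 higher became 6 without a filter. In WT, 11 lower in NPC became 17 with the offsets. Of 88 called changes of at least 0.5 in size, 3 lost their call under some setting: Chd6 in WT with the offsets (0.03), and both Dpf3 interactions without single ESC libraries (-0.75 to -0.54). Of 351 gene values, calls lost and gained were 11 and 24 with the offsets, 21 and 12 without a filter, 22 and 16 under upper-quartile scaling and 2 and 3 with DESeq2; leaving out 1 library lost 103 and gained 22 of 2574. Smaller changes reversed. With offsets for GC content and length the stage change became, in WT, -0.11 for Smarca4, -0.024 for Pbrm1, -0.35 for Smarcc1, -0.17 for Ss18l1, -0.22 for Chd2, -0.13 for Chd4 and -0.15 for Chd8. In dCD it became -0.093 for Smarca4, -0.44 for Arid1a, -0.18 for Pbrm1, -0.43 for Chd6, -0.43 for Chd7 and -0.41 for Chd8. In MLL2dTAG it became -0.045 for Arid1a, -0.23 for Arid2, -0.20 for Smarcc1, 0.084 for Smarcb1, -0.17 for Chd6, -0.23 for Chd7 and -0.45 for Chd8. The difference from WT in ESC became 0.070 for Smarca4 in dCD and 0.086 for Smarca5 in MLL2dTAG. Upper-quartile scaling gave Chd8 a difference from WT of -0.0002 in MLL2dTAG NPC and -0.086 for its stage change in MLL2dTAG, and shifted the all-gene median of that comparison to -0.11. Without a filter the stage change of Arid2 in dCD was 0.014 and 10 genes were higher and 11 lower in MLL2dTAG NPC. The cause was not tested. Replicate numbers did not pair libraries: same-numbered deviations correlated at -0.019 to 0.032, and a replicate block changed 2 of 351 calls. Low counts limit Actl6b in all ESC groups and Dpf3 in WT and dCD ESC.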
